A study of Glycine max with 4 samples.

Results

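The sites on soybean chromosomes 10 and 20 bound in chromatin immunoprecipitated for the protein of locus GLYMA.13G317000 are described here. A site was taken by its chromosome alone, with no measured value in the choice. It counted as shared when 1 peak of each replicate list were each other's largest overlap, by at least 1 bp, and it was placed midway between their summits. Chromosome 10 held 2380 shared sites and chromosome 20 held 1915, together 4295 of the 44959 in the series (9.55%). Replicate 1 had 2552 peaks on chromosome 10 and 2064 on chromosome 20, and replicate 2 had 3290 and 2668.

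The series has 2 samples of immunoprecipitated chromatin and 2 input samples of sonicated chromatin taken without antibody. All came from mid-maturation embryos of soybean (Glycine max) cultivar Williams 82, dissected from seeds of 200 to 250 mg, with no genotype or treatment that differs between samples. The antibody was raised against a peptide spanning amino acids 1 to 15 of the protein, so another protein that carries this stretch could also be drawn down, and its specificity was not tested here. The files used are the peak lists of the 2 immunoprecipitated samples, and no file of the input samples was analysed here. Embryos were crosslinked in 1% formaldehyde for 10 min, chromatin was sheared to 100 to 500 bp, each precipitation used 2 µg of antibody, and libraries went through 15 PCR cycles. The replicate numbers come from the titles. The design text calls the replicates biological, without saying whether they were separate plants or harvests.

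In the mid-maturation stage, cells of the soybean cotyledon make large amounts of storage protein and oil. The main storage proteins are glycinin and beta-conglycinin, and genes for beta-conglycinin subunits lie on chromosomes 10 and 20. Soybean descends from an ancestor whose genome was duplicated, and these chromosomes share segments that go back to that duplication. On a soybean chromosome, genes are mostly found towards the ends, while a long central part around the centromere is rich in repeats. Seed transcription factors bind short DNA motifs near their target genes, and a peak marks the stretch around such contacts. No gene was assigned to any site, because distance alone does not identify a target and the sources used here do not name the genome build of the coordinates, which are printed as the lists have them, counted from 1. Duplicated segments were not aligned with each other here.

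Each peak has a summit, the base with the most overlapping reads, and a fold enrichment, which is the number of reads piled up at the summit divided by a local background (each plus 1). Whole-number pileups behind these ratios could be recovered for all 48191 peaks of replicate 1 and all 62340 of replicate 2. On both chromosomes together the pileups ran from 12 to 269 reads in replicate 1 (median 29.5) and from 11 to 289 reads in replicate 2 (median 31). Intervals on a fold cover the counting error of the pileup only. Intervals on densities and shares take sites as independent, which neighbouring sites of the same library are not.

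Both chromosomes were dense in sites at their ends and sparse in a long interior, and they differed mainly near the start. Chromosome 10 carried 46.2 shared sites per Mb (95% Poisson interval 44.3 to 48.1) and chromosome 20 carried 40.0 (38.2 to 41.8). In order of density they were the tenth and the sixteenth of 20 chromosomes. The density of chromosome 20 was 0.866 times that of chromosome 10 (exact 95% interval 0.815 to 0.920). The ratio was 0.870 in the replicate 1 list and 0.873 in the replicate 2 list.

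**Figure D1:**
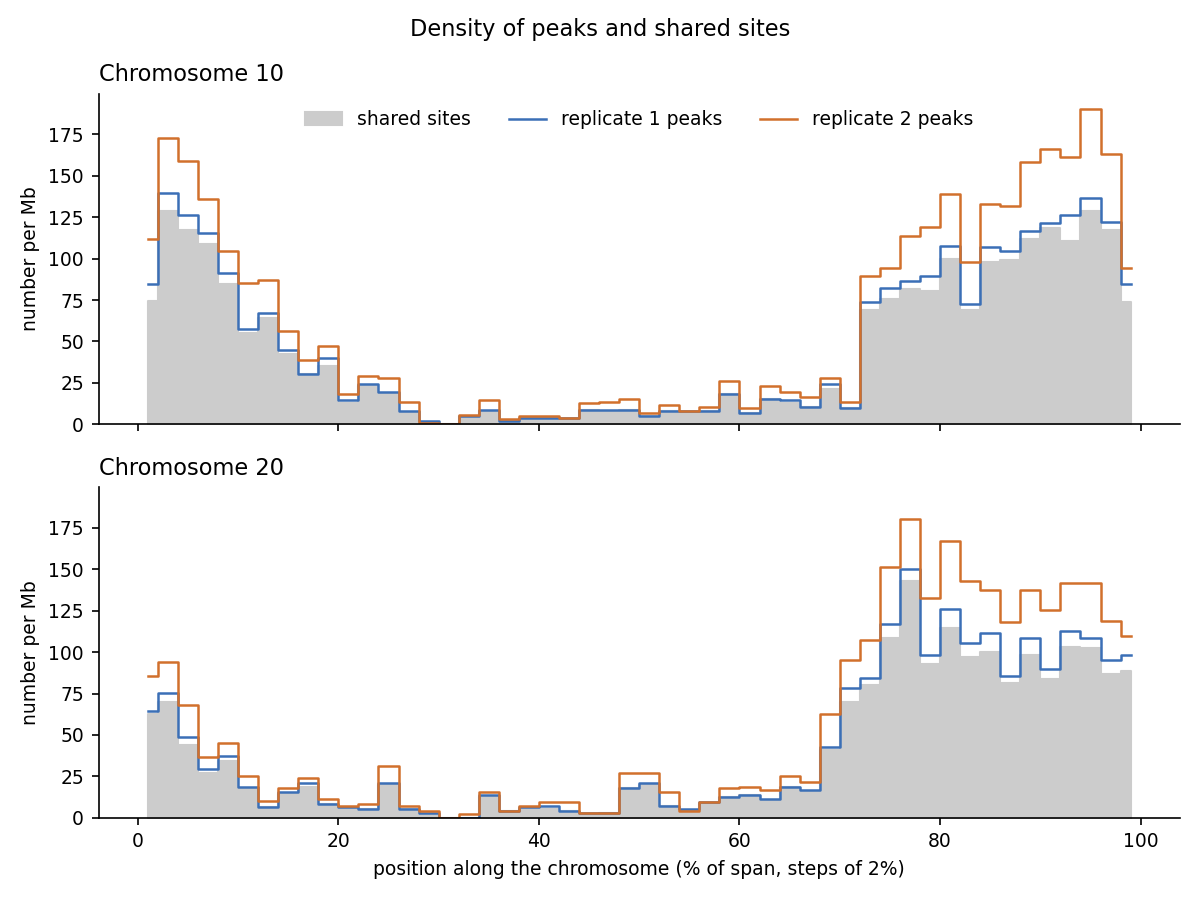
Number of peaks or shared sites per Mb (y axis) along chromosomes 10 and 20 (x axis, percent of the span, in steps of 2%), with replicate 1 peaks in blue, replicate 2 peaks in orange and shared sites as the grey area. Both profiles fall to a sparse interior, and the dense part at the start is longer and higher on chromosome 10 than on chromosome 20.

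Each chromosome was divided, after its profile had been seen, into a start zone, an interior and an end zone. The outer zones are the unbroken runs of 1 Mb bins from either end with at least the mean density of all 20 chromosomes, 47.2 shared sites per Mb. Since density set the borders, contrasts of zones with the interior and between the chromosomes are descriptions. On chromosome 10 the start zone was 8 Mb long and the end zone 14.5 Mb. On chromosome 20 the start zone was 3 Mb long and the end zone 14.9 Mb. The interiors were 29 Mb and 30 Mb long.

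The end zones of the chromosomes were alike in length and density. That of chromosome 10 held 1375 shared sites, or 94.5 per Mb (89.6 to 99.6), and that of chromosome 20 held 1417, or 95.1 per Mb (90.2 to 100.2). Their density ratio, chromosome 20 over 10, was 1.01 (0.934 to 1.08). It was 1.01 in each replicate list as well. A difference within this interval was not detectable with these numbers of sites. Since a border lies where a bin first reaches the mean, some step there is built in. On chromosome 10 the bin that starts at 36000001 held 10 shared sites and the next 58. The counts of chromosome 20 rose over several bins, with 19 in the bin that starts at 32000001 and then 61, 68, 105 and 122.

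The start zones differed. The start zone of chromosome 10 held 696 shared sites, or 87.0 per Mb (80.7 to 93.7), while that of chromosome 20 held 180, or 60.0 per Mb (51.6 to 69.4). The density ratio was 0.690 (0.582 to 0.814), with 0.689 in the replicate 1 list and 0.709 in the replicate 2 list. It sets 3 Mb against 8 Mb, lengths that density itself had set. In the first 3 bins of 1 Mb, chromosome 10 held 71, 130 and 119 shared sites and chromosome 20 held 61, 69 and 50. The shorter and sparser start zone held 9.40% of the shared sites of chromosome 20, against 29.2% on chromosome 10. The end zones held 74.0% and 57.8%, respectively. With borders set by length instead, the last 20% of the span held 3.15 times as many shared sites as the first 20% on chromosome 20 and 1.38 times as many on chromosome 10. Ranked by this ratio, chromosome 20 was the third of 20 and chromosome 10 the seventh.

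The interiors were alike in density, with a ratio of 0.995 (0.848 to 1.17). The interior of chromosome 10 held 309 shared sites, or 10.7 per Mb (9.50 to 11.9), and that of chromosome 20 held 318, or 10.6 per Mb (9.47 to 11.8). Under the same rule, the interiors of the other 18 chromosomes had from 11.5 to 33.3 shared sites per Mb, with a median of 18.5. Both values lay under this range, but its lowest value lies within both of their intervals. By the rule, an interior can take in dense stretches. Those of the other 18 held 11.1% to 51.6% of the shared sites of their chromosome. In the middle 20% of the span, chromosome 10 had 7.76 shared sites per Mb and chromosome 20 had 8.45. Chromosomes 4, 5 and 18 had fewer than both (3.92, 5.92 and 5.86). Chromosome 2 lay between them with 7.83, and all others had more. Of the fixed windows of 100 kb, 157 of 290 in the interior of chromosome 10 held no shared site (54.1%), and 142 of 300 did on chromosome 20 (47.3%). No window of either end zone was without one. The part of gene content and of how readily reads align in this contrast was not tested. The median local background at shared sites in the interior of chromosome 10 was 3.24 reads in replicate 1 and 3.16 in replicate 2, and in its end zone 3.46 and 3.35. On chromosome 20 these medians were 3.24 and 3.26 reads in the interior, against 3.36 and 3.35 reads in the end zone.

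The interiors held fewer sites, whose folds had medians close to those of the outer zones. The median fold enrichment at shared sites of chromosome 10 was 7.04 in the interior, 6.89 in the start zone and 6.86 in the end zone in replicate 1. In replicate 2 these medians were 8.91, 8.88 and 8.79. On chromosome 20 the interior had medians of 7.23 and 9.40, the start zone 6.98 and 8.59, and the end zone 7.04 and 9.04. Within each replicate the zone medians of a chromosome differed by less than the replicates did.

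**Figure D2:**
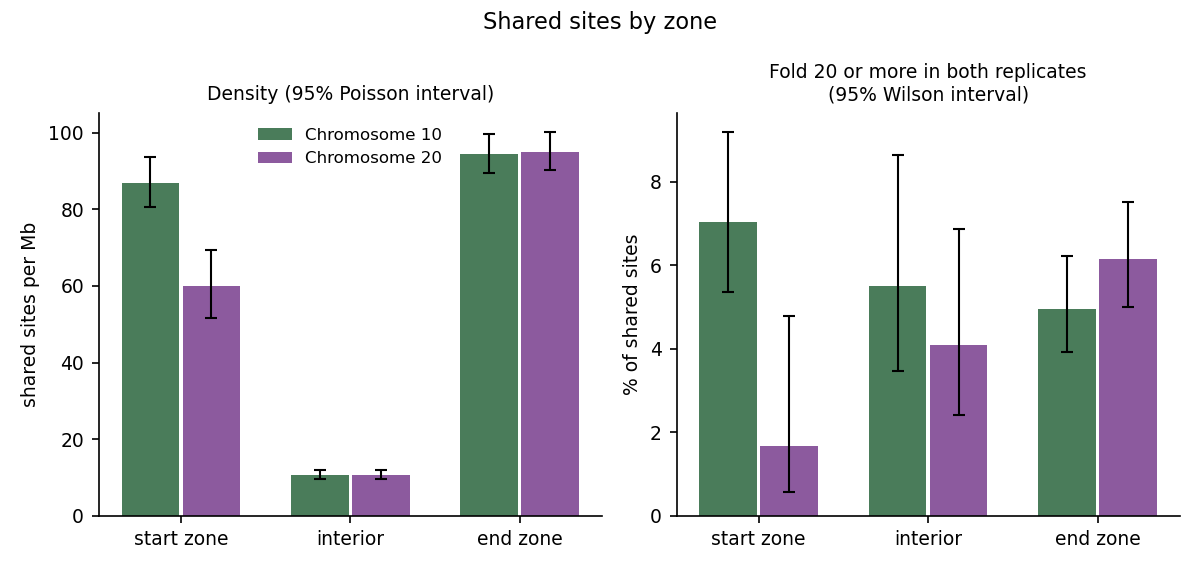
Shared sites per Mb with 95% Poisson intervals (left) and the percentage of shared sites with a fold of 20 or more in both replicates with 95% Wilson intervals (right), for the 3 zones of chromosome 10 (green) and chromosome 20 (purple). The end zones and the interiors match in density, and the start zone of chromosome 20 is lower in both panels.

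Strong sites were spread unequally between the start zones. A fold of 20 or more in both replicates was reached by 134 shared sites on chromosome 10 (5.63%) and by 103 on chromosome 20 (5.38%), against 5.88% of all shared sites in the series. In the start zone of chromosome 10 this held for 49 of 696 sites, or 7.04% (95% Wilson interval 5.37 to 9.19). In the start zone of chromosome 20 it held for only 3 of 180 sites, or 1.67% (0.568 to 4.78). Start zones of 17 other chromosomes had shares of 3.14% to 7.67%, with a median of 5.69%. The share of chromosome 20 lay under this range, but its interval covers the lowest value. Since the borders were drawn after the profiles had been seen, the contrast of the start zones was given no test. The end zones had 68 of 1375 (4.95%) and 87 of 1417 (6.14%), with overlapping intervals. The interiors had 17 of 309 (5.50%) and 13 of 318 (4.09%). A fold of 10 or more in both replicates was reached by 25.4% of the shared sites on either chromosome, 604 and 486 sites, against 26.9% in the series. At that lower level the start zone of chromosome 20 had 41 of 180 sites (22.8%) and that of chromosome 10 had 183 of 696 (26.3%).

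Long intervals without a shared site lay in the interiors. On chromosome 20 the longest ran from 13737203 to 16566986 and measured 2.83 Mb, or 5.91% of the span, the longest of any chromosome. Its left border is a site with folds of 12.5 in replicate 1 and 16.5 in replicate 2, and its right border one with folds of 14.2 and 30.8. Replicate 1 had 1 unshared peak inside it, with 20 reads at the summit and a fold of 5.28. Replicate 2 had 4, with 17 to 27 reads and folds of 4.15 to 6.72. None of these 5 peaks overlapped a peak of the other list. The length depends on counting shared sites only. In the replicate 1 list alone the longest interval of chromosome 20 was 2.71 Mb, and in the replicate 2 list alone it was 1.65 Mb.

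The second interval of chromosome 20 ran from 20284987 to 21537717 (1.25 Mb). It held no other replicate 1 peak and 2 unshared replicate 2 peaks, with folds of 3.99 and 3.51. The next 3 measured 0.619 Mb, 0.503 Mb and 0.500 Mb. In all, 5 intervals of at least 500 kb covered 11.9% of chromosome 20. On chromosome 10 there were 10 such intervals, and they covered 15.2%. By this share chromosome 10 was the seventh of 20 and chromosome 20 the 17th. Only the longest interval was longer on chromosome 20 than on chromosome 10, and the next 4 were each shorter there than their counterparts by rank. Counting those of at least 200 kb, the chromosomes came close, with 45 intervals over 36.5% of chromosome 10 and 40 over 35.6% of chromosome 20.

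On chromosome 10 the 2 longest intervals were neighbours, with a single shared site between them. The first ran from 15192417 to 16636783 (1.44 Mb) and the second from 13791718 to 15192417 (1.40 Mb). The lone site, at 15192238 to 15192633, was a weak one. It had 25 reads at the summit in replicate 1, a fold of 6.53 (4.32 to 9.53), and 21 reads in replicate 2, a fold of 4.56 (2.90 to 6.86). Its nearest shared neighbour was 1.40 Mb away, the farthest of any shared site on either chromosome. The second interval held no other peak in either list. The first held 1 unshared peak in each, with a fold of 5.78 at 15361567 to 15361856 in replicate 1 and of 8.36 at 16606686 to 16607025 in replicate 2. The longest interval measured 1.40 Mb in the replicate 1 list alone and 1.41 Mb in the replicate 2 list alone. The remaining 3 of the 5 longest measured 0.823 Mb, 0.660 Mb and 0.658 Mb.

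Other isolated sites were weak to moderate. The site at 22126426 to 22126815 on chromosome 10 lay 469031 bp from its nearest neighbour, with 37 and 30 reads at the summit and folds of 8.08 and 5.61 in replicates 1 and 2. On chromosome 20 the most isolated site was at 22396042 to 22396454, 415942 bp from the next. It had 53 and 63 reads and folds of 8.86 and 9.50. The next sites to its left were at 21932731, with folds of 4.27 and 7.46, and beyond it at 21537543, with folds of 4.48 and 4.70. The latter borders the second longest interval.

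Some interior sites were as strong as many in the end zones. On chromosome 10 the strongest of the interior was at 12102285 to 12102904, with 165 reads in replicate 1 and 187 in replicate 2. Its folds were 37.1 (31.7 to 43.2) and 39.0 (33.6 to 44.9), and the nearest shared site was 20424 bp away. The next, at 29284242 to 29284856, had folds of 30.7 and 39.6. On chromosome 20 the strongest was at 8510099 to 8510689, with 131 and 174 reads and folds of 31.1 (26.1 to 36.9) and 45.7 (39.2 to 53.0). The site at 24967330 to 24968030 had folds of 31.4 and 45.1. That at 19172868 to 19173517, with folds of 24.6 and 42.8, stood 86290 bp from its nearest neighbour. In the series these ranked from 416 to 868 among the shared sites of the chromosomes.

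Pooled over all zones, neighbouring sites were spaced alike on both chromosomes and elsewhere. The median distance between neighbouring shared summits was 6813 bp on chromosome 10, 7574 bp on chromosome 20 and 7012 bp on the other 18. Within 2 kb of the next lay 19.1% of them on chromosome 10 (17.6 to 20.7), 18.8% on chromosome 20 (17.1 to 20.6) and 18.9% on the others. Within 10 kb these shares were 60.2%, 58.8% and 60.2%. The distances were longer in the interiors than in the end zones. Between the interiors the medians differed, although their densities were alike. The median was 6012 bp in the end zone of chromosome 10 and 28826 bp in its interior. On chromosome 20 it was 6472 bp and 37235 bp. In the start zones the median was 5990 bp on chromosome 10 and 9050.5 bp on chromosome 20.

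The densest windows of 100 kb held 17 to 22 shared sites. On chromosome 10 the first was from 45500001 to 45600000, with 22 shared sites from 23 replicate 1 peaks and 30 replicate 2 peaks. Its sites were mostly weak, with median folds of 5.97 and 8.10 and highest folds of 18.3 and 24.8. A window near the start, from 2400001 to 2500000, held 21 shared sites with median folds of 8.54 and 10.0, of which 3 reached a fold of 20 in both replicates. The window from 49700001 to 49800000 also held 21. Those from 39600001 to 39700000 and from 48900001 to 49000000 held 20 each. Of these 5 windows, 4 lay in the end zone and 1 in the start zone.

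On chromosome 20 all 5 lay in the end zone. The window from 36400001 to 36500000 held 20 shared sites, from 21 replicate 1 peaks and 24 replicate 2 peaks, with median folds of 6.41 and 7.69. That from 35300001 to 35400000 held 19, among them a site with folds of 50.3 and 46.9, the fourth strongest of the chromosome. The windows from 35700001 to 35800000 and from 41800001 to 41900000 held 18 each. The fifth, from 36800001 to 36900000, held 17, as did 2 other windows, and is the first of them by position. In 4 of these 10 windows no shared site reached a fold of 20 in both replicates, which 5.88% of all shared sites in the series did. With so few sites per window, no trait of dense windows is read from this count.

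At a finer scale, the most shared sites within 20 kb were 10 on chromosome 20 and 9 on chromosome 10. The stretch on chromosome 20 ran over 13.6 kb from 38296639 to 38310285. Its 10 sites had 14 to 115 reads at the summit in replicate 1, with folds of 3.66 to 24.7 (median 7.39). In replicate 2 they had 19 to 137 reads and folds of 4.60 to 34.5 (median 8.80). On chromosome 10 the first such stretch ran over 15.8 kb from 39648780 to 39664553, with median folds of 6.28 and 7.46. The number of 9 was reached from 8 starting sites on chromosome 10. The highest number on any chromosome was 15. By this number chromosome 20 was tied at rank 6 and chromosome 10 at rank 15 of 20, so neither stood out.

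None of the 10 strongest sites of either chromosome, by the geometric mean of both folds, lay in an interior. On chromosome 10, 7 lay in the end zone and 3 in the start zone, where 57.8% and 29.2% of all its shared sites lay. On chromosome 20 all 10 lay in the end zone, which held 74.0% of its shared sites. With 10 sites each, these counts are too few to be compared with those shares and are given as positions only. Neither chromosome had a site among the 10 strongest of all chromosomes. They held 7 of the strongest 100 and 85 of the strongest 1000 (8.50%), against 9.60% of all shared sites on chromosomes. Of the 85, 52 were among the 2380 shared sites of chromosome 10 and 33 among the 1915 of chromosome 20.

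The strongest site of chromosome 10 was at 43748618 to 43749148, the part common to both lists. It had 218 reads at the summit in replicate 1 and 236 in replicate 2. The fold was 55.0 (48.0 to 62.8) in replicate 1 and 61.2 (53.7 to 69.5) in replicate 2, and it ranked 19th of all shared sites on chromosomes. A weak shared site lay 724 bp away, with folds of 5.78 and 6.05. The site at 42176424 to 42177112 had 177 and 218 reads and folds of 44.7 (38.4 to 51.8) and 57.2 (49.9 to 65.3). Its summits in the lists lay 1 bp apart. The third, at 45379055 to 45379871, had nearly equal values, with 191 and 192 reads and folds of 47.8 and 48.9. Its nearest neighbour, 1922 bp away, was strong itself, with folds of 21.7 and 28.2.

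The sites at 38017561 to 38018917, 39003024 to 39003667 and 44659376 to 44660101 were higher in replicate 2 by fold. Their folds were 41.2 and 53.6, 39.3 and 54.2, and 40.0 and 52.7. The first of these was the widest of the 10, with 1523 bp in replicate 1 and 1357 bp in replicate 2. In the start zone, the site at 7251062 to 7251923 had 198 and 227 reads and folds of 35.3 and 59.0. That at 7856189 to 7857216 had 179 and 195 reads and folds of 45.2 and 44.9. That at 3959018 to 3959521 had 173 and 183 reads and folds of 43.5 and 44.7. The start zone of chromosome 20, with 180 shared sites against 696 in that of chromosome 10, had no site of this strength. With so few sites, nothing is read from this absence.

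The tenth site of chromosome 10, at 42601216 to 42602004, changed rank most between replicates. It had the most reads of the 10, 255 in replicate 1 and 281 in replicate 2. Its fold was 27.4 (24.2 to 31.0) in replicate 1, the 54th of the chromosome, and 69.6 (61.7 to 78.2) in replicate 2, the first. In replicate 1 the local background held 8.33 reads, against 3.05 in replicate 2. No difference between the pileups was called (exact binomial test, adjusted p = 1 over all shared sites of the series). The fold divides by this background, whose own counting error the intervals leave out.

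**Figure D3:**
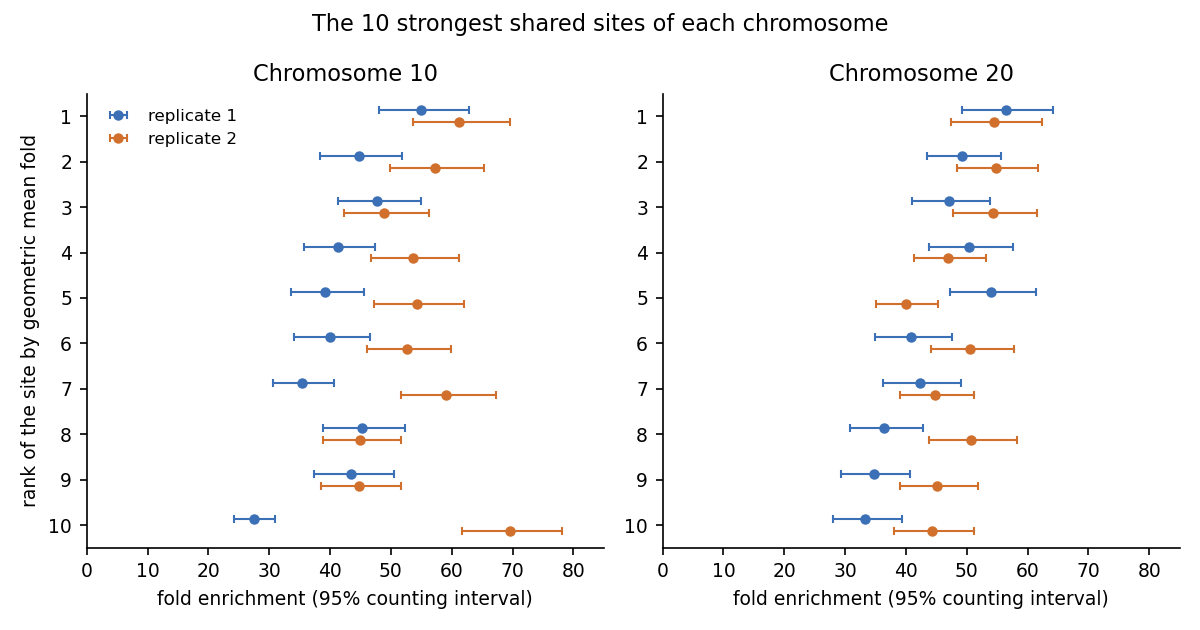
Fold enrichment (x axis) of the 10 strongest shared sites of chromosomes 10 and 20, ranked by the geometric mean of both folds (y axis), in replicate 1 (blue) and replicate 2 (orange), with 95% counting intervals of the pileup. The intervals of the replicates overlap at 7 of 10 sites on chromosome 10 and 8 of 10 on chromosome 20, and the widest gap is at the tenth site of chromosome 10.

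On chromosome 20 the strongest site was at 44348198 to 44348911. It had 225 reads in replicate 1 and 210 in replicate 2, with folds of 56.4 (49.3 to 64.2) and 54.5 (47.4 to 62.4), and ranked 32nd in the series. It was the only one of both lists of 10 with fewer reads in replicate 2. The site at 43441283 to 43442088 had 259 and 267 reads and folds of 49.2 and 54.8. The site at 45538221 to 45538779 had 215 and 240 reads and folds of 47.1 and 54.3. The site at 35315192 to 35316134 had 206 and 248 reads and folds of 50.3 and 46.9, and it lay in the second densest window of the chromosome.

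The site at 42280721 to 42281369 had a higher fold in replicate 1, 54.0 (47.2 to 61.5), than in replicate 2, 39.9 (35.1 to 45.2). The summit held 228 reads over a background of 3.24 in the first and 249 over 5.26 in the other. At 45198789 to 45199434 the folds were 40.8 and 50.6, and at 46615271 to 46615844 they were 42.3 and 44.8. The site at 33762858 to 33763500, in the first bin of the end zone, had folds of 36.4 and 50.7. The last 2 of the 10, at 39098496 to 39099322 and 45022357 to 45023264, had folds of 34.7 and 45.1, and of 33.3 and 44.2. Both had a strong neighbour, 5693 bp away with folds of 27.4 and 24.0, and 1852 bp away with folds of 20.1 and 23.5.

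Over all shared sites, the replicates stood to each other alike on both chromosomes. The fold was higher in replicate 2 at 1853 of 2380 sites on chromosome 10 (77.9%) and at 1508 of 1915 on chromosome 20 (78.7%). Dividing the replicate 2 fold by that of replicate 1 gave medians of 1.26 and 1.27, against 1.26 on the other 18 chromosomes. The SD of the log2 ratio was 0.43 on each. Median folds were 6.89 in replicate 1 and 8.86 in replicate 2 on chromosome 10, and 7.04 and 9.12 on chromosome 20. The median strength, the geometric mean of both folds, was 7.65 and 7.86. The chromosomes thus differed by less than the replicates did.

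**Figure D4:**
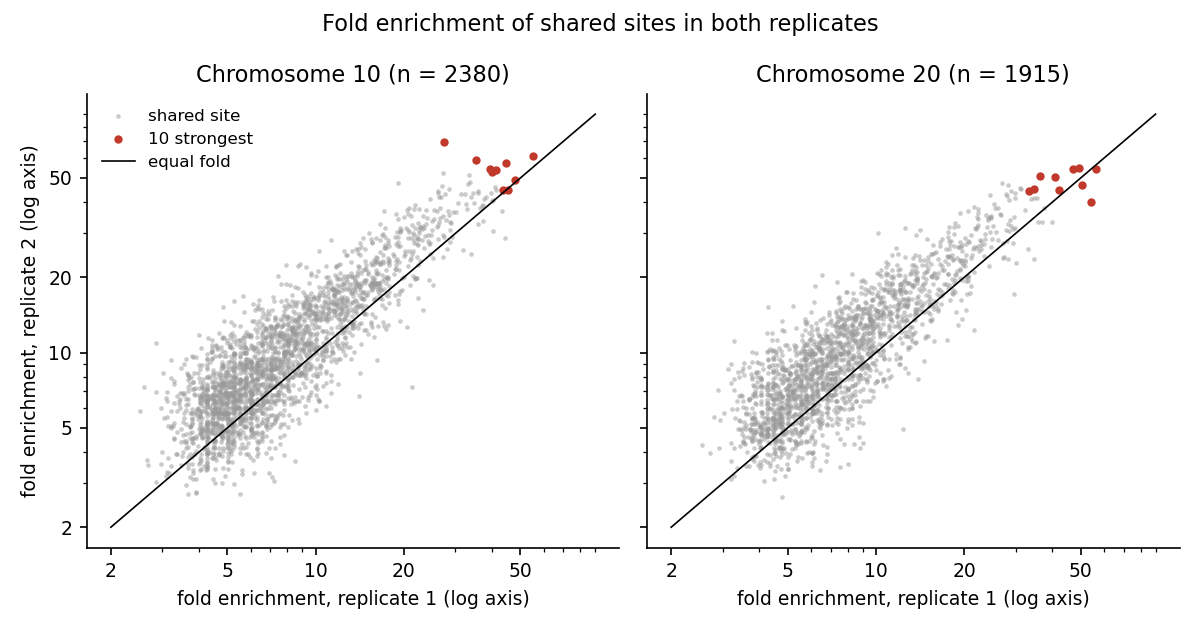
Fold enrichment of each shared site in replicate 1 (x axis, log scale) and replicate 2 (y axis, log scale) for chromosome 10 (2380 sites) and chromosome 20 (1915 sites), with the 10 strongest sites in red and the line of equal fold. Most sites lie above the line on both chromosomes, 77.9% on chromosome 10 and 78.7% on chromosome 20.

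Pileups of both replicates were compared at each shared site of the series after a common scaling of 1.25 (exact binomial test, two-sided, Benjamini-Hochberg adjustment over 44959 sites). On each chromosome 1 site had an adjusted p of at most 0.05, and the series had 13, or 0.0289% of sites. At an unadjusted p of at most 0.05 there were 94 on chromosome 10 (3.95%) and 65 on chromosome 20 (3.39%), against 3.84% in the series. These shares are near the background.

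At both called sites, 1 wide replicate 1 peak overlapped 2 replicate 2 peaks. The one on chromosome 10 spanned 39534577 to 39536206, or 1630 bp, in replicate 1, with 84 reads at its summit. Its largest overlap was with a replicate 2 peak at 39534604 to 39535285 with 27 reads, whose summit lay 1086 bp away (exact binomial test, adjusted p = 5.48e-07). The other replicate 2 peak, at 39535538 to 39536294, had 105 reads, and its summit lay 37 bp from that of replicate 1. The site on chromosome 20 spanned 31585452 to 31586666 in replicate 1, with 66 reads. Its partner at 31586130 to 31586690 had 32 reads, 543 bp away (exact binomial test, adjusted p = 0.0223). The other replicate 2 peak there, at 31585425 to 31585965, had 95 reads, 17 bp away.

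Setting the highest overlapping pileup against each peak, an alternative chosen after these values were seen, left both sites with an adjusted p of 1. By the same exact binomial test none of the 4295 sites was then called, and 5 were called in the series. An unadjusted p of at most 0.05 was then found at 155 of the 4295 sites, against 1698 of 44959 in the series. Such an overlap of 1 replicate 1 peak with 2 or more replicate 2 peaks was found at 30 shared sites on chromosome 10 and 36 on chromosome 20, and at 1.66% of shared sites in the series. Of the 13 called sites in the series, 12 had 2 or more overlapping peaks in one list or the other, against 2.25% of all shared sites.

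**Figure D5:**
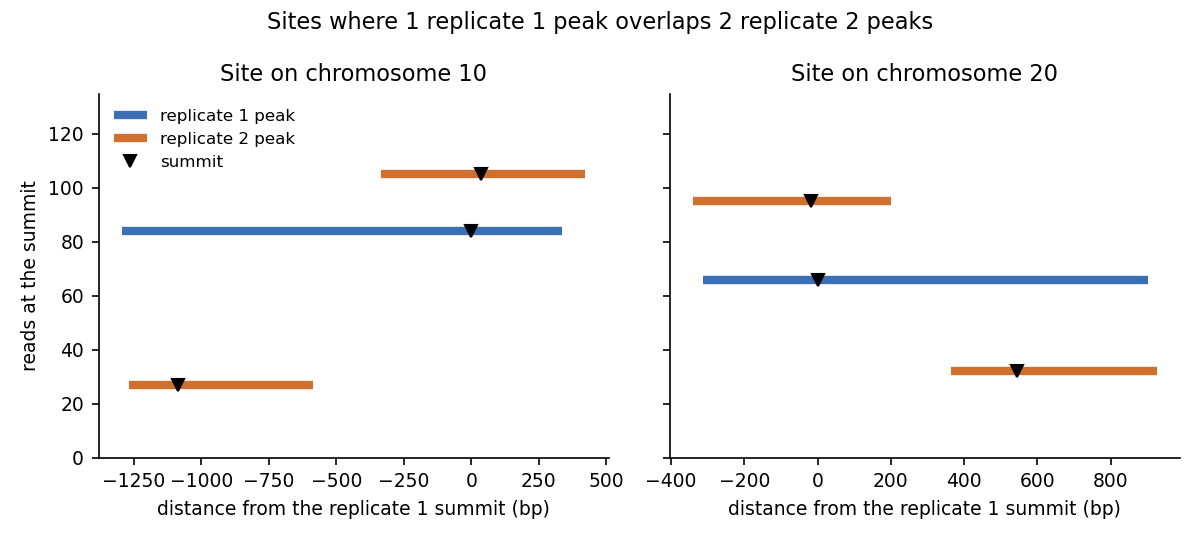
Peaks of replicate 1 (blue) and replicate 2 (orange) at the 2 sites called different between replicates, by distance from the replicate 1 summit in bp (x axis) and reads at the summit (y axis); bars span each peak and triangles mark summits. At each site 1 replicate 1 peak overlaps 2 replicate 2 peaks, and the replicate 2 peak with the nearest summit has more reads than the replicate 1 peak.

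Peaks without any overlap in the other list were mostly weak. On chromosome 10 they were 158 of 2552 in replicate 1 (6.19%, 95% Wilson interval 5.32 to 7.19) and 882 of 3290 in replicate 2 (26.8%, 25.3 to 28.3). On chromosome 20 they were 136 of 2064 (6.59%, 5.60 to 7.74) and 716 of 2668 (26.8%, 25.2 to 28.6). In the series the shares were 6.19% and 26.7%, so neither chromosome stood apart. Each interval of an interior covered the share of the end zone. In replicate 2 the share was 29.5% (25.4 to 33.9) in the interior and 27.0% in the end zone of chromosome 10, and 28.5% (24.6 to 32.9) and 26.5% on chromosome 20. In replicate 1 the order was the opposite, with 6.08% (3.97 to 9.20) and 6.30% on chromosome 10, and 5.62% (3.63 to 8.61) and 6.85% on chromosome 20.

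Median folds of these unmatched peaks were 4.45 in replicate 1 and 4.91 in replicate 2 on chromosome 10, and 4.26 and 4.81 on chromosome 20. A fold of 10 was reached by 7 of the 882 in replicate 2 on chromosome 10 and by none of the 716 on chromosome 20. No unmatched replicate 1 peak of either chromosome reached it. The share over the series was not counted, and with so few peaks no trait of chromosome 10 is read from this. In replicate 1 the strongest were at 1533469 to 1533876 on chromosome 10, where 28 reads gave a fold of 7.07, and at 46582876 to 46583275 on chromosome 20, where 30 reads gave 7.19. In replicate 2 the strongest on chromosome 10 was at 39847500 to 39847844, where 53 reads gave a fold of 12.9 (9.74 to 16.8), 12473 bp from the nearest replicate 1 summit. On chromosome 20 it was at 37723882 to 37724228, where 37 reads gave a fold of 9.92, with the nearest replicate 1 summit 7752 bp away.

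A raised local background was rare on both chromosomes, as it was in the series. Both replicates reached 3 times their lowest background or more at 1 of 2380 shared sites on chromosome 10 and at none of 1915 on chromosome 20. In the series 33 of 44959 did (0.0734%). With counts this small, no trait of either chromosome is read from them. The site on chromosome 10, at 19103723 to 19104059, borders the fourth longest interval there. It had 80 reads over a background of 10.4 in replicate 1, a fold of 7.13 (5.67 to 8.85), and 83 reads over 11.5 in replicate 2, a fold of 6.73 (5.38 to 8.33). These backgrounds were 3.48 and 4.06 times the lowest of their lists.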

How the data were processed

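Libraries of 2 immunoprecipitated and 2 input samples were sequenced; reads were aligned with Bowtie 0.12.7 and peaks called with MACS2, per the submitters' processing notes. The sources used here do not give the genome build, the calling threshold, the control or the number of reads. The authors deposited 1 list per immunoprecipitated sample, with a score, a fold enrichment (a ratio over local background), a −log10 p-value and a −log10 q-value for each peak. These values are the authors' own. The deposited q-values reached up to 0.00563 (replicate 1) and 0.00871 (replicate 2).

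Pileups were recovered as whole numbers that match both fold and p-value within 0.001 on the −log10 scale. No molecular identifiers mark PCR copies, so intervals cover counting error only. Chromosome spans end at the last peak, coordinates count from 1, and peaks at q as deposited were used. Named are the 10 strongest shared sites, the 5 longest intervals and the 5 densest 100 kb windows of each chromosome, the strongest unmatched peaks, sites that differed between replicates and sites with raised background; isolated and interior sites were added after their values were seen. Members, regions and tests were chosen with earlier results of these data known. Scripts used Python 3.11.15 and scipy 1.17.1 and were tested on simulated data.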

Additional observations from a re-analysis of the deposited data

How the results depend on the processing

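Overlap of at least 50% of the shorter peak, q of at most 1e-5 in both lists, other windows or scalings and each replicate list alone were tried; no value changed direction. Beyond the spread between replicate lists, the density ratio of chromosome 20 over 10 moved to 0.873 with the strict q. The ratio of outer to middle density (outer 20% at each end against the middle 20%), 11.4 on chromosome 10 and 7.45 on chromosome 20, fell to 6.60 and 3.67 with outer 25% against middle 50%, which takes denser parts into the middle by construction. The ratio of median strengths, 1.03, was 1.01 by pileups. Taking the highest overlapping pileup, chosen after seeing the data, gave 0 calls on both chromosomes in place of 2 and 5 in the series in place of 13. Whether these 5 are among the 13 was not counted. At an unadjusted p of at most 0.05 (exact binomial test) it gave 155 of 4295 sites, against 1698 of 44959 in the series.

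Single lists gave 2552 to 3290 sites on chromosome 10 and 2064 to 2668 on chromosome 20, and a density ratio of 0.870 to 0.873. They gave outer to middle ratios of 10.7 to 11.8 and 6.96 to 7.53, longest intervals of 1.40 to 1.41 Mb and 1.65 to 2.71 Mb, and densest windows of 23 to 32 and 21 to 25 sites. Median folds of single lists were 6.54 to 7.05 and 6.77 to 7.25, and the ratios of median folds at shared sites were 1.02 to 1.03. Single lists keep unshared peaks by construction, which divide the longest interval of chromosome 20.

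No paired analysis was possible because the input samples, the only other group, have no file among those analysed here. The fewest reads at a summit were 12 in replicate 1 and 11 in replicate 2, and the effect of depth was not tested.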
